A study of Mus musculus with 6 samples.

Results

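The genes of sterol and fatty acid synthesis and of sterol efflux were followed in mouse acute myeloid leukaemia that carries the fusion oncogene MLL-AF9, with and without Dnmt3b, the gene of an enzyme that methylates DNA de novo. The list holds 36 genes and was chosen by gene symbol. Of these, 32 were measured on array rows that carry exactly 1 gene symbol, among 30142 genes in all. The rows of Srebf1, Scd2 and Msmo1 carry several symbols and were not used, and Nr1h2 was not analysed here. The 6 arrays, 1 per sample, held total RNA of leukaemia cells that had been sorted, at end stage, from the marrow of transplanted mice. In the 3 Control samples the leukaemia came from littermate controls, and in the 3 Dnmt3b-KO samples it lacked Dnmt3b. Both groups carried MLL-AF9. The way Dnmt3b was deleted, the markers used for sorting, and the animals' sex and age are not given in the sources used here. At issue is how the members differ between leukaemia with and without Dnmt3b.

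Cells make cholesterol from acetyl-CoA through mevalonate, isoprenoids, squalene and lanosterol, and they make fatty acids from malonyl-CoA, after which elongases and desaturases lengthen and unsaturate the chains. SREBP transcription factors, encoded by Srebf1 and Srebf2, switch on most of these genes when membrane sterol is low: the escort protein SCAP carries them to the Golgi for cleavage, and INSIG proteins hold them back when sterol is plentiful. LXR receptors respond to oxysterols instead and raise the efflux pumps ABCA1 and ABCG1, which in macrophages export cholesterol to lipoproteins.

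SREBP binds sterol response elements close to the start of its target genes, usually beside boxes for NF-Y (CCAAT) and Sp1 (GGGCGG). The 250 bases before the start of 5 members are shown as examples. All 5 carry CCAAT, but only Srebf2, Hmgcs1 and Cyp51 match a sterol response element spelling searched here (TCACCNCA or TCACNCCAC). Other spellings of the element were not searched. Srebf2, Cyp51, Lss and Fasn were lower on every Dnmt3b-KO array than on any control, where 8.21% of all genes were. These 4 are among the members named for a small p in these data, so their agreement follows in part from that choice. Hmgcs1, which holds both spellings of the element, overlapped the controls. A link between these letters and the change was not tested. Each is written 5′ to 3′ on the strand of its gene, from RefSeq on GRCm38.p6, with capitals marking matches to TCACCNCA (a short sterol response element spelling), TCACNCCAC (a longer one), CCAAT and GGGCGG on either strand.
Srebf2: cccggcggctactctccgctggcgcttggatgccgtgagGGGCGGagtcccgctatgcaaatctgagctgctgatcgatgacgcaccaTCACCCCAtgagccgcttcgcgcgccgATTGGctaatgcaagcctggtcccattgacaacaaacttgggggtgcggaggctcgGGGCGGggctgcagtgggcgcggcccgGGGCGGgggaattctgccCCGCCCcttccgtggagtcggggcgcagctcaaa
Hmgcs1: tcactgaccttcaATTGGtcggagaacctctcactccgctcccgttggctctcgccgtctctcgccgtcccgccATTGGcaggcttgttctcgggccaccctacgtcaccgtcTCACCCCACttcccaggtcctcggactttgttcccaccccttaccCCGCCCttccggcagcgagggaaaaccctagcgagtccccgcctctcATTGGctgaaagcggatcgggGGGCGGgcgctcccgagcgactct
Cyp51: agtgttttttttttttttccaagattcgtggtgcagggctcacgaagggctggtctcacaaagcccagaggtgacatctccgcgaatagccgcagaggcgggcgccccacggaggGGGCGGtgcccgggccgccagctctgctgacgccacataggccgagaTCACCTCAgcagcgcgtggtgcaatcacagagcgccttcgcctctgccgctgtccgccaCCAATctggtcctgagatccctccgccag
Lss: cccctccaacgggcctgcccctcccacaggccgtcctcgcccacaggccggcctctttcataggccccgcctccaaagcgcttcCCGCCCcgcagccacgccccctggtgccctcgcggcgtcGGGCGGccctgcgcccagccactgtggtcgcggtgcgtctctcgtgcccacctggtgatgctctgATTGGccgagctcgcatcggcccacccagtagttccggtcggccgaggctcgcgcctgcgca
Fasn: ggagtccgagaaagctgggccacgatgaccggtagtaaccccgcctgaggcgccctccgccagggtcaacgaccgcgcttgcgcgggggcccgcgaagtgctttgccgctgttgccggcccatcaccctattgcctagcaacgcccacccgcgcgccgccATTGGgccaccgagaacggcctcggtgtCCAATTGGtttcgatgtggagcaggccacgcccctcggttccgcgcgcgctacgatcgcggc
The windows lie at chr15:82147019-82147268 (plus strand) for Srebf2, chr13:119690101-119690350 (plus strand) for Hmgcs1, chr5:4104698-4104947 (minus strand) for Cyp51, chr10:76531355-76531604 (plus strand) for Lss and chr11:120824548-120824797 (minus strand) for Fasn. The short spelling begins at position -162 from the start in Srebf2, -137 in Hmgcs1 and -88 in Cyp51, and the longer spelling overlaps it in Hmgcs1. The windows of Lss and Fasn hold neither spelling, and that of Fasn holds no GGGCGG either. In the window of Fasn a pair of CCAAT matches overlap each other.

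Promoters were available for 25 of the 32 members, and for 27025 genes in all. TCACCNCA, a spelling widened after the promoters had been read, was found in 5 members (20%), namely Srebf2, Hmgcs1, Cyp51, Hsd17b7 and Elovl5, against 4.18% of all genes. Of these, Srebf2, Cyp51 and Elovl5 were below every control on all 3 Dnmt3b-KO arrays, and Hmgcs1 and Hsd17b7 overlapped the controls. Because the spelling was widened after reading, its share among the members cannot be read as an enrichment. TCACNCCAC was found in Hmgcs1 alone (4%), against 1.22%. CCAAT was found in 18 members (72%), against 37.5% of all genes and 39.5% of coding genes, and GGGCGG in 19 (76%), against 35.4% and 45.8%. The median number of CpG dinucleotides in the window was 20 over the members and 11 over coding genes. The series holds no methylation data, and a match to these letters is a description of the sequence.

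Over the 6 arrays the members lay below control as a group, and none passed the test alone. All 3 Dnmt3b-KO arrays were below all 3 controls for 17 of the 32 members (53.1%), against 8.21% of all genes and 11.6% of genes above the median level. All 3 were above all controls for 0 members, against 6.68% of all genes. The change was below 0 for 26 members (81.2%), against 51.2% of all genes and 60.4% of genes above the median level. The median change of the members, Dnmt3b-KO minus control, was -0.36 on the log2 scale as deposited, against -0.0036 over all genes. The limma test with Benjamini-Hochberg adjustment over 30142 genes called 0 members and 0 genes (0% of all genes in either direction), with adjusted p from 0.57 for Lss to 0.95 for Scd1 among the members. At an unadjusted p under 0.05, 15 members were lower and 0 higher, where 3.58% and 2.79% of all genes were.

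Array quality and cell type markers are given beside these values. Array medians over all genes ran from 4.75 to 4.85, and correlations across genes from 0.998 to 0.999 among 5 of the arrays, but Dnmt3b-KO replicate 3 correlated with these at 0.9805 to 0.9816. It lay more than 1 log2 unit above every other array for 12 of 17 measured monocyte and macrophage markers, against 3.06% of all genes. The mean level of these markers was 5.77 to 5.89 in control, 5.92 on Dnmt3b-KO replicate 1, 5.78 on replicate 2 and 9.48 on replicate 3. Their part in the results was not tested. The macrophage markers Vsig4 and Axl stayed below the median gene, 4.79, on all 6 arrays. Of 8 mast cell, basophil and eosinophil markers, 6 were below every control on all 3 Dnmt3b-KO arrays (75%, against 8.21% of all genes). The mean level of this list was 8.46 to 8.55 in control and 5.94 to 7.29 in Dnmt3b-KO. Mcpt8 went the other way on replicates 1 and 2, at 10.86 and 10.50 against 9.87 to 10.37 in control, and measured 8.80 on replicate 3. Fcer1a was below the median gene on every array. All 3 Dnmt3b-KO arrays were also below every control for 4 of 5 erythroid markers, among them Alas2 with a change of -1.25 and Slc4a1 with -1.07 over 6 arrays. So they were for 3 of 10 granulocyte markers, Ngp (-1.63), Retnlg (-0.94) and Ltf (-0.60). Over 6 arrays 9 of 10 granulocyte markers had a change below 0, against 51.2% of all genes and 60.4% of genes above the median level. The exception, Mmp9, was above every control on all 3 Dnmt3b-KO arrays, at 6.01, 6.32 and 7.66 against 5.09 to 5.58. Over 5 arrays Mmp8 (0.46) and Cxcr2 (0.008) were above 0 too. Over 5 arrays limma called 6 of the mast cell, basophil and eosinophil markers and Retnlg lower, where it called 0.75% of all genes lower. The part of these lineages in the results was not tested. The B and T cell markers had 0 of 6 and the stromal markers 1 of 7 below every control on all 3 Dnmt3b-KO arrays. Of the myeloid and progenitor markers, Ptprc, Itgam, Kit and Mpo had levels of at least 9.71 on every array. On replicates 1 and 2, 5 of 8 were above every control, against 15.1% of all genes, with Meis1 higher by 0.65 over 5 arrays (limma, adjusted p = 0.011). On replicate 3, 6 of 8 were below every control, Kit for example at 9.71 against 11.02 to 11.18. On that array 36.4% of all genes and 55.7% of genes above the median level were below every control. The part of the myeloid and progenitor markers was not tested. Flt3 was below the median gene on every array, and Hoxa9 and Spi1 were not analysed here. In bulk samples, fewer cells of a type and less RNA per cell cannot be told apart. The targeted gene, Dnmt3b, was at 6.79 ± 0.04 (SD, n = 3) in control, and the 3 Dnmt3b-KO arrays read 6.47, 6.63 and 5.96, all below the controls. Its change of -0.44 ± 0.17 (SE) missed the threshold (limma, adjusted p = 0.78), as did that of -0.24 ± 0.07 without replicate 3 (adjusted p = 0.16), and whether its probes lie in the deleted part is not known. Because replicate 3 stands apart, each result is also given without it, over 5 arrays.

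Without Dnmt3b-KO replicate 3 the shift towards lower values was still there, with 1 member past the threshold. Dnmt3b-KO replicates 1 and 2 were both below every control for 22 of 32 members (68.8%), against 17.4% of all genes and 20.1% of genes above the median level, and both above for 0, against 15.1%. The change was below 0 for 31 members, where 53.7% of all genes and 51.2% of genes above the median level were, and the median change was -0.29, against -0.0096. Limma called 1 member lower, Fads1, and 0 higher, where it called 0.75% of all genes lower (1.43% of those above the median level) and 0.939% higher. At an adjusted p under 0.1, 7 members were lower (21.9%), Pmvk, Fdps, Sqle, Lss, Fasn, Elovl6 and Fads1, and 0 higher, where 1.82% and 1.99% of all genes were. Of the 32 members 20 were lower at an unadjusted p under 0.05, against 7.73% of all genes, and 0 higher, against 7.74%.

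**Figure D1:**
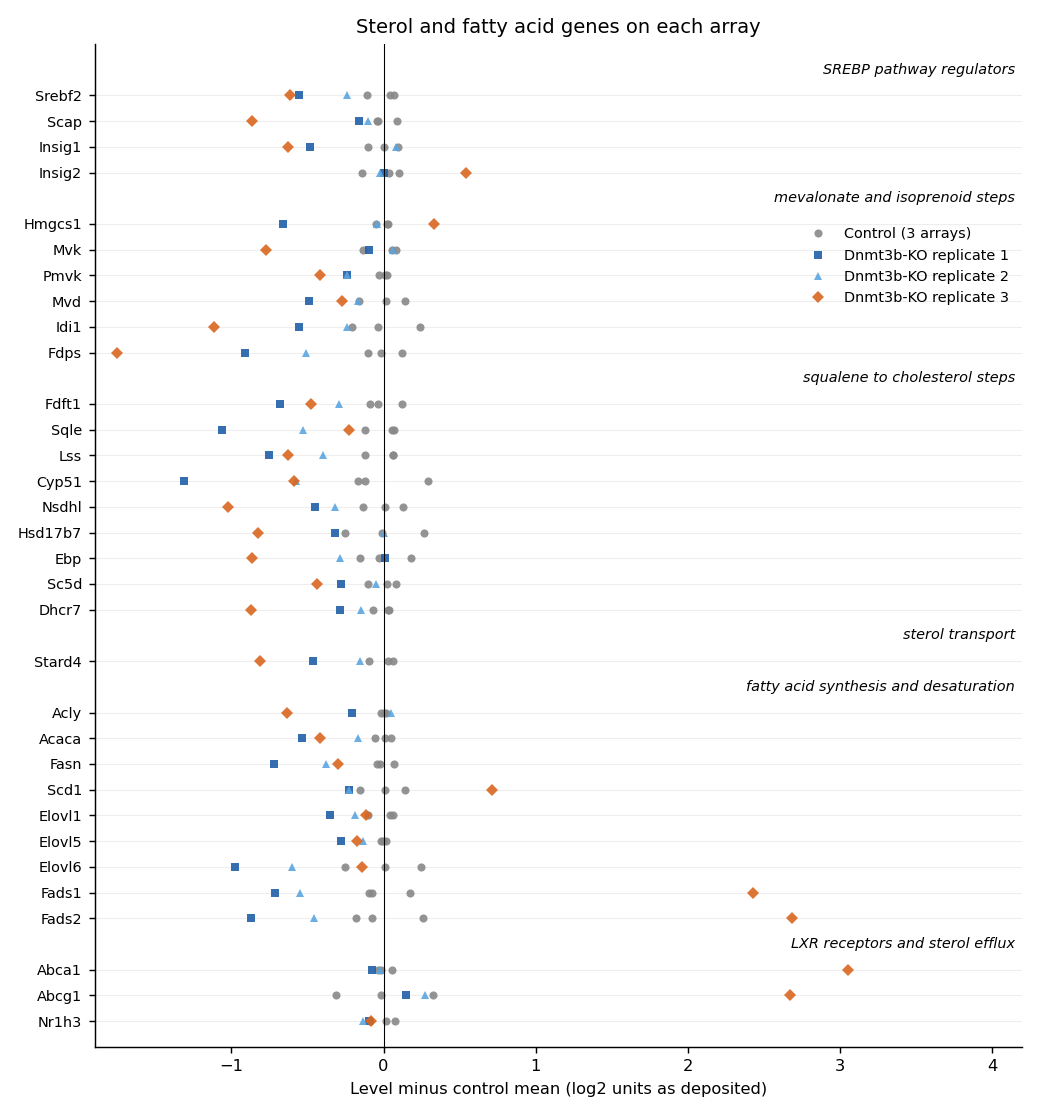
Level of each of the 32 members on each array minus the mean of its 3 controls, in log2 units as deposited, grouped by role; grey circles are controls, and squares, triangles and diamonds are Dnmt3b-KO replicates 1, 2 and 3. Most blue points lie left of the controls, and Fads1, Fads2, Abca1 and Abcg1 lie far to the right on replicate 3.

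**Figure D2:**
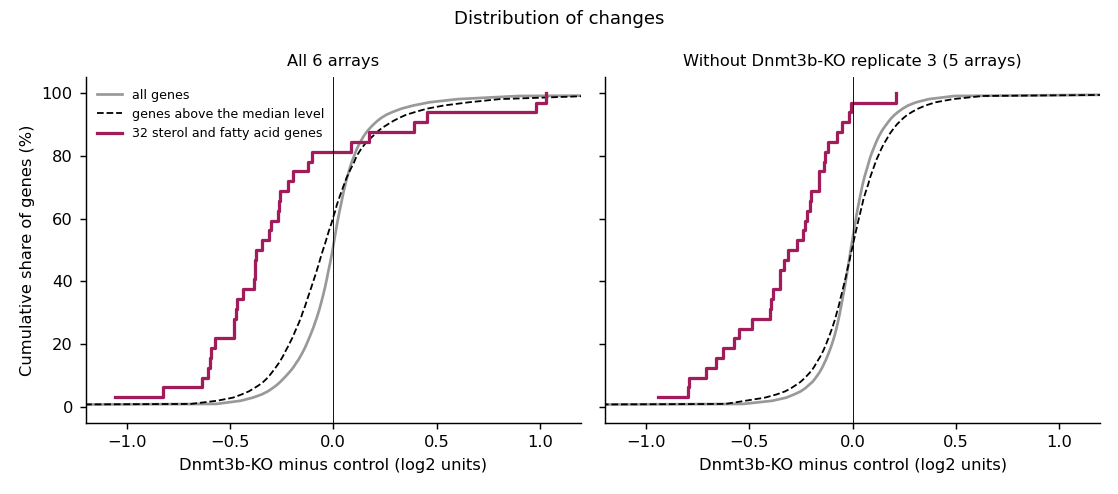
Cumulative share of genes, in percent, by change (Dnmt3b-KO minus control, log2 units), over all 6 arrays (left) and without Dnmt3b-KO replicate 3 (right), for the members, all 30142 genes and the genes above the median level; changes beyond the axis are not drawn. The members' curve lies to the left, with medians of -0.36 and -0.29, and its upper end on the left panel holds the members that were high on replicate 3.

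Among the regulators, Srebf2, the SREBP gene that mainly serves sterol synthesis, measured 10.84, 10.69 and 10.86 on the control arrays and 10.24, 10.56 and 10.18 on the Dnmt3b-KO arrays. Every Dnmt3b-KO value was below every control, with replicate 2 closest to them. The change was -0.47 ± 0.12 (SE) over 6 arrays (limma, adjusted p = 0.65) and -0.40 ± 0.11 over 5 (adjusted p = 0.15). Scap, the escort of SREBP, did not overlap either, at 9.41 to 9.54 in control and 9.29, 9.35 and 8.59 in Dnmt3b-KO, though replicates 1 and 2 were close to the lowest control. Insig1 and Insig2, which retain the SREBP complex, overlapped between the groups: Insig1, itself an SREBP target, was 10.66 to 10.86 in control and 10.28, 10.84 and 10.13 in Dnmt3b-KO. Insig2 differed by -0.01 ± 0.08 (SE) over 5 arrays and measured 7.94 on replicate 3, above every other array.

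In the mevalonate and isoprenoid steps, 4 of 6 genes were below every control on all 3 Dnmt3b-KO arrays and 0 passed the test. The share below every control was 8.21% of all genes and 11.6% of genes above the median level. Fdps, which makes farnesyl pyrophosphate, the branch point to sterols and prenylated proteins, measured 12.23, 12.14 and 12.36 in control and 11.33, 11.73 and 10.49 in Dnmt3b-KO. All 3 knockout arrays were clear of the controls, replicate 3 furthest. Its change of -1.06 ± 0.31 (SE; limma, adjusted p = 0.68) was the lowest of all members over 6 arrays, and over 5 arrays it was -0.71 ± 0.13 (adjusted p = 0.063). Pmvk, phosphomevalonate kinase, measured 7.19, 7.24 and 7.23 in control against 6.98, 6.97 and 6.80. Its groups were tight and apart, with a change of -0.30 ± 0.07 over 6 arrays (limma, adjusted p = 0.64) and -0.24 ± 0.05 over 5 (adjusted p = 0.098). Idi1, the isomerase that yields dimethylallyl pyrophosphate, was 10.42 to 10.87 in control and 10.07, 10.38 and 9.51 in Dnmt3b-KO, and Mvd, the decarboxylase before it, was 6.20 to 6.50 and 5.87, 6.19 and 6.09. For both, replicate 2 was within 0.05 of the lowest control. Hmgcs1, which condenses acetyl units at the head of the pathway, did not follow the pattern: it was 9.60 and 10.21 on replicates 1 and 2 and 10.59 on replicate 3, where the controls ran from 10.21 to 10.29. Mvk, mevalonate kinase, overlapped on replicates 1 and 2 and was 5.45 on replicate 3, against a lowest control of 6.08.

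The steps from squalene to cholesterol were below every control on all 3 knockout arrays for 6 of 9 genes, against 8.21% of all genes and 11.6% of genes above the median level. Dnmt3b-KO replicate 3 was below every control for 9 of 9, on an array where 36.4% of all genes and 55.7% of genes above the median level were. Sqle, squalene epoxidase, a rate-limiting step, measured 9.39, 9.38 and 9.20 in control and 8.26, 8.80 and 9.10 in Dnmt3b-KO. Replicate 1 was the lowest here and replicate 3 the closest to control. Its change was -0.61 ± 0.22 (SE) over 6 arrays (limma, adjusted p = 0.74) and -0.80 ± 0.16 over 5 (adjusted p = 0.077). Lss, lanosterol synthase, which closes the sterol rings, measured 7.88, 7.69 and 7.87 in control and 7.06, 7.42 and 7.19 in Dnmt3b-KO. All 3 knockout arrays were lower, by -0.59 ± 0.11 over 6 arrays (limma, adjusted p = 0.57) and -0.57 ± 0.12 over 5 (adjusted p = 0.084), so that this gene differed about as much with and without replicate 3. Cyp51, the lanosterol demethylase, measured 9.38, 8.97 and 8.92 against 7.78, 8.51 and 8.50. Replicate 1 stood lowest, with a change of -0.82 ± 0.24 over 6 arrays (limma, adjusted p = 0.67) and -0.94 ± 0.24 over 5 (adjusted p = 0.13), the lowest of all members over 5.

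Fdft1, squalene synthase, the first committed step to sterols, measured 7.81, 7.65 and 7.60 in control and 7.01, 7.39 and 7.21 in Dnmt3b-KO. The groups were apart, with a change of -0.48 ± 0.12 (SE) over 6 arrays (limma, adjusted p = 0.64) and -0.49 ± 0.13 over 5 (adjusted p = 0.14). Nsdhl, which takes part in removing the methyl groups of lanosterol, measured 8.85 to 9.12 in control against 8.54, 8.67 and 7.97. It was lowest on replicate 3, and its change was -0.60 ± 0.20 over 6 arrays (limma, adjusted p = 0.71) and -0.38 ± 0.09 over 5 (adjusted p = 0.12). Dhcr7, which catalyses the last reduction to cholesterol, was 8.05 to 8.15 in control and 7.83, 7.96 and 7.24 in Dnmt3b-KO. Hsd17b7, Ebp and Sc5d, which act on the ring between lanosterol and cholesterol, overlapped between the groups through replicate 1 or 2, with changes of -0.17 to -0.14 over 5 arrays, and were lowest on replicate 3. Stard4, a sterol carrier and SREBP target, was 8.55 to 8.71 in control and 8.18, 8.49 and 7.83 in Dnmt3b-KO, again with replicate 2 nearest the controls.

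**Figure D3:**
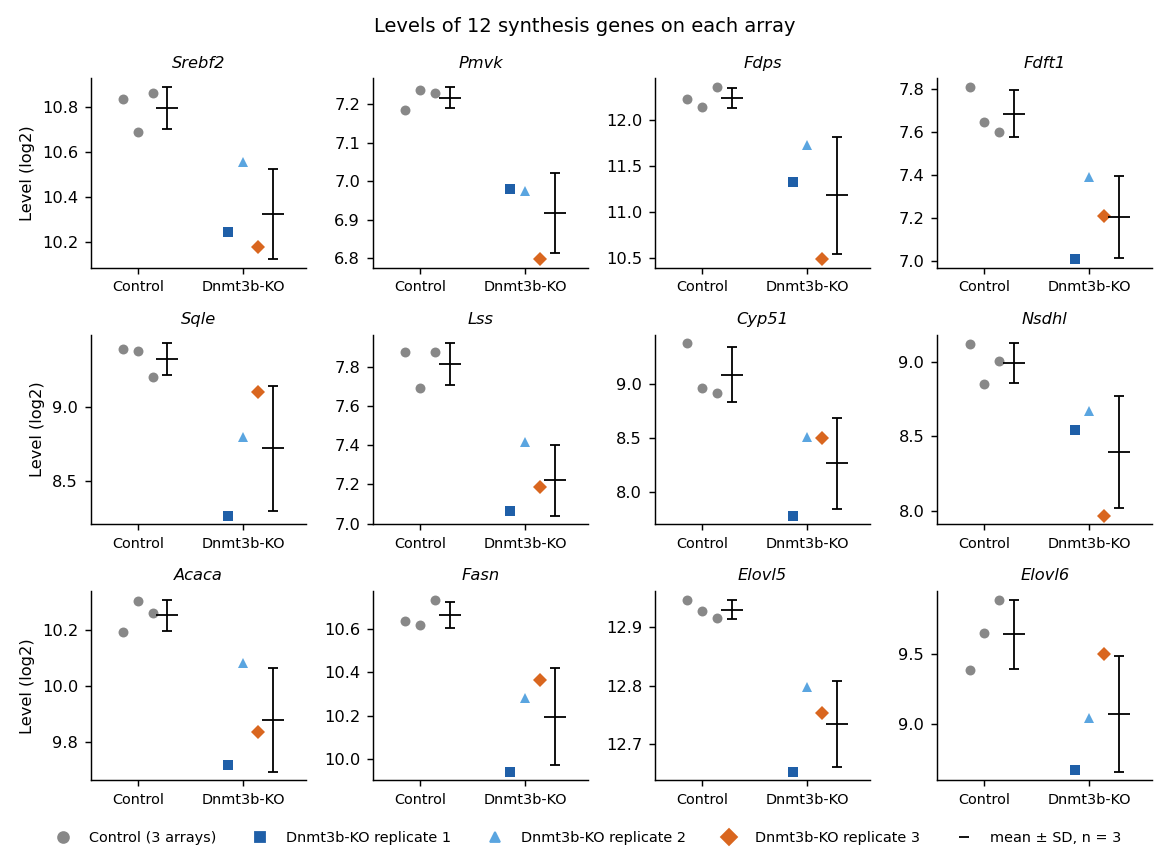
Levels of 12 synthesis genes on each array (log2 as deposited, a separate scale for each gene that does not start at 0); grey circles are the 3 controls, the coloured symbols Dnmt3b-KO replicates 1, 2 and 3, and bars the mean ± SD of 3 arrays. The groups do not overlap for 11 of the 12, and for Elovl6 replicate 3 at 9.51 lies above the lowest control, 9.39. The 12 are the members named for a small p in these data, without Fads1 and Fads2, so this count follows in part from that choice. Over all members the count was 17 of 32, against 8.21% of all genes.

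Of the 9 fatty acid genes, 8 were below every control on Dnmt3b-KO replicates 1 and 2, against 17.4% of all genes and 20.1% of genes above the median level. On all 3 arrays 4 were, against 8.21% and 11.6%. Fasn, fatty acid synthase, measured 10.64, 10.62 and 10.73 in control and 9.94, 10.28 and 10.36 in Dnmt3b-KO. All knockout values were below the controls, with a change of -0.47 ± 0.12 (SE) over 6 arrays (limma, adjusted p = 0.65) and -0.55 ± 0.11 over 5 (adjusted p = 0.075). Acaca, acetyl-CoA carboxylase, which makes malonyl-CoA, measured 10.19, 10.30 and 10.26 against 9.72, 10.08 and 9.84. It too was apart, with a change of -0.37 ± 0.10 over 6 arrays (limma, adjusted p = 0.66) and -0.35 ± 0.11 over 5 (adjusted p = 0.20). Acly, which supplies cytosolic acetyl-CoA, was the exception: it measured 12.22 to 12.25 in control, 12.03 on replicate 1, 12.29 on replicate 2, above every control, and 11.60 on replicate 3.

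Of the elongases, Elovl5, which acts on polyunsaturated chains, measured 12.95, 12.93 and 12.92 in control and 12.65, 12.80 and 12.75 in Dnmt3b-KO. The shift was small and the groups were apart, by -0.20 ± 0.06 (SE) over 6 arrays (limma, adjusted p = 0.70) and -0.21 ± 0.06 over 5 (adjusted p = 0.20). Elovl1, which makes very long chains, was 10.78 to 10.95 in control and 10.53, 10.70 and 10.77 in Dnmt3b-KO, with replicate 3 just under the lowest control. Elovl6, which lengthens palmitate, measured 9.39, 9.65 and 9.89 in control and 8.67, 9.04 and 9.51 in Dnmt3b-KO, so that only replicates 1 and 2 were clear of the controls. Its change was -0.57 ± 0.24 over 6 arrays (limma, adjusted p = 0.79) and -0.79 ± 0.17 over 5 (adjusted p = 0.092). Scd1, a stearoyl-CoA desaturase, lay near the median gene on the first 5 arrays, at 4.46 to 4.83, and at 5.40 on replicate 3.

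Fads1 and Fads2, the desaturases that make polyunsaturated fatty acids such as arachidonic acid, changed sides with the array. Fads1 measured 8.46, 8.44 and 8.71 in control, 7.82 and 7.99 on Dnmt3b-KO replicates 1 and 2, and 10.96 on replicate 3. Replicates 1 and 2 lay below every control and replicate 3 was 2.25 above the highest of the other arrays. Over 5 arrays Fads1 fell by 0.63 ± 0.10 (SE; limma, adjusted p = 0.047), but the call was lost without any 1 of those arrays (adjusted p from 0.084 to 0.27), and over all 6 arrays the change was 0.39 ± 0.85 (adjusted p = 0.93). Fads2 measured 6.04, 5.93 and 6.38 in control, 5.25 and 5.66 on replicates 1 and 2, and 8.80 on replicate 3. It showed the same order of arrays, with a change of -0.66 ± 0.17 over 5 arrays (limma, adjusted p = 0.14) and 0.45 ± 0.94 over 6 (adjusted p = 0.92). In the gene order of GRCm38.p6 Fads1, Fads2 and Fads3 are neighbouring coding genes on chromosome 19, and Fads3 was below the median gene on every array and differed by -0.03 over 5 arrays.

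For the genes of sterol efflux, Abca1 and Abcg1, replicates 1 and 2 overlapped the controls, and replicate 3 was far above them, as it was for Fads1 and Fads2. Abca1 measured 4.23, 4.24 and 4.31 in control, 4.19 and 4.24 on Dnmt3b-KO replicates 1 and 2, and 7.31 on replicate 3. Below the median gene on 5 arrays, it was high on 1. Its changes were -0.05 ± 0.06 (SE) over 5 arrays (limma, adjusted p = 0.78) and 0.98 ± 0.86 over 6 (adjusted p = 0.83). Abcg1 measured 6.78, 6.49 and 7.13 in control, 6.95 and 7.07 on replicates 1 and 2, and 9.47 on replicate 3. Its changes were 0.21 ± 0.18 over 5 arrays (limma, adjusted p = 0.67) and 1.03 ± 0.70 over 6 (adjusted p = 0.83), the highest of all members in both fits. Nr1h3, which encodes LXRα, was close to the median gene, at 5.07 to 5.23 in control and 5.02 to 5.08 on the 3 knockout arrays, replicate 3 included.

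**Figure D4:**
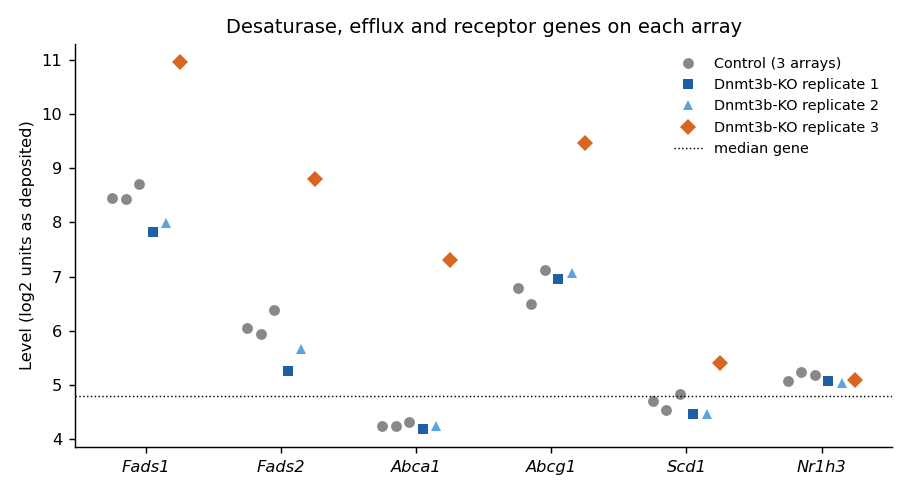
Levels of desaturase, efflux and receptor genes on each array (log2 as deposited; the axis does not start at 0), with controls as grey circles, Dnmt3b-KO replicates as coloured symbols and the median gene, 4.79, as a dotted line. Replicate 3 is highest for Fads1 (10.96), Fads2 (8.80), Abca1 (7.31), Abcg1 (9.47) and, by less, Scd1 (5.40), but not for Nr1h3 (5.08).

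On Dnmt3b-KO replicate 3, a single array with no replicate, 4 members were more than 1 above every other array (12.5%), Fads1, Fads2, Abca1 and Abcg1, against 3.06% of all genes and 4.85% of those above the median level, and 0 were more than 1 below, against 1.59%. On the upper side the nearest member inside that limit was Fads1, 2.25 above the next array, and the nearest outside it Scd1, 0.57 above, with none between. On the lower side Fdps came nearest to the limit, 0.84 below every other array. The macrophage markers high on the same array, given above, include Csf1r at 12.97 and Cd68 at 14.60, and their part was not tested. In the other direction 23 of 32 members (71.9%) were below every control on replicate 3, but so were 36.4% of all genes and 55.7% of genes above the median level. A further count on this array, 7 members above every control (21.9%), was below the share of all genes, 39%. The background of lower values is thus high on replicate 3, which is 1 of the 3 arrays behind the count of 17.

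The members also differed in degree between Dnmt3b-KO replicates 1 and 2. Replicate 1 was below replicate 2 for 27 of 32 members (84.4%), against 51.9% of all genes. The median of the members' differences from their control means was -0.46 on replicate 1, -0.18 on replicate 2 and -0.43 on replicate 3. The gap was widest for Cyp51, 0.74 between replicates 1 and 2, followed by Hmgcs1 at 0.61 and Insig1 at 0.56. Replicate 1 was below every control for 28 members and replicate 2 for 23, where 31.8% and 29.8% of all genes were.

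Further genes of lipid metabolism gave a mixed picture. Of 19 measured genes of other synthesis steps, 10 were below every control on replicates 1 and 2 (52.6%, against 17.4% of all genes) and 3 above (15.8%, against 15.1%). Over all 6 arrays these counts were 5 (26.3%, against 8.21%) and 2 (10.5%, against 6.68%). Elovl7, an elongase, was the only 1 past the threshold over 5 arrays and fell by 1.00 ± 0.16 (SE; limma, adjusted p = 0.045). It measured 6.75 to 7.21 in control, 5.85 and 6.19 on replicates 1 and 2 and 7.50 on replicate 3, above every control, and the call was lost without any 1 of the 5 arrays (adjusted p from 0.076 to 0.25). Of 6 genes of SREBP processing and sterol sensing 0 passed, and on replicates 1 and 2 there were 0 below every control. Rnf139 and Fbxw7 were above (33.3%, against 15.1% of all genes), but both were below every control on replicate 3. Fbxw7 measured 7.16 on replicate 2, close to the highest control, 7.11. Mbtps1, a protease that cleaves SREBP, differed by 0.04 ± 0.06, and Rnf139, a ubiquitin ligase of the endoplasmic reticulum, by 0.17 ± 0.08 (limma, adjusted p = 0.37). Of 10 genes of LXR targets and sterol handling 0 passed, with 4 above every control on replicates 1 and 2 (40%, against 15.1% of all genes) and 2 below (20%, near the 17.4% of all genes). Lipa, the lysosomal lipase that frees cholesterol from its esters, measured 12.11 to 12.13 in control and 12.57, 12.39 and 13.65 in Dnmt3b-KO, a change of 0.36 ± 0.07 over 5 arrays (limma, adjusted p = 0.073).

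Genes that burn or store fat were mixed, and none of them passed the threshold in either fit. Of 11 fatty acid oxidation genes, 5 were above every control on replicates 1 and 2 (45.5%, against 15.1% of all genes) and 0 below (17.4% of all genes), and 5 of 11 had a change below 0 over 5 arrays. Cpt1a, which admits fatty acids to the mitochondrion, measured 11.67, 12.19 and 11.29 in control, 12.87 and 12.58 on replicates 1 and 2 and 10.97 on replicate 3. It was high on the first pair and below every control on replicate 3, with a change of 1.01 ± 0.25 (SE) over 5 arrays (limma, adjusted p = 0.13; adjusted p = 0.049 without control replicate 2). Of 13 lipid droplet and lipolysis genes, 7 were above every control on replicates 1 and 2 (53.8%, against 15.1% of all genes). Below every control were 3, Cd36, Fabp4 and Fabp5 (23.1%, near the 17.4% of all genes). On replicate 3 these 3 lay above every control instead, at 9.50, 4.53 and 6.27. Dgat1, which completes triglyceride synthesis, was 7.65 to 7.77 in control, 8.17 and 8.03 on replicates 1 and 2 and 7.34 on replicate 3, a change of 0.37 ± 0.07 over 5 arrays (limma, adjusted p = 0.077). Over all 6 arrays the counts of genes above every control were 1 for oxidation (9.09%) and 2 for lipid droplets (15.4%), where 6.68% of all genes were. The difference between the members and these lists was not tested.

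**Figure D5:**
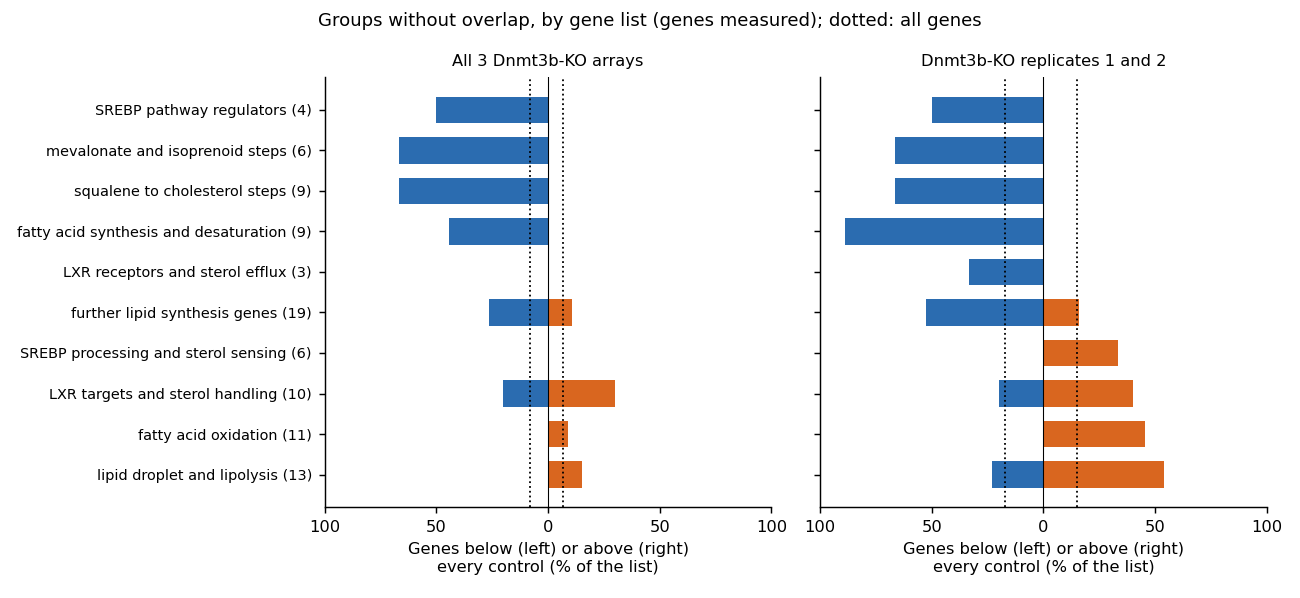
Share of the measured genes of each list (number in brackets), in percent, that lay below every control (bars to the left) or above every control (bars to the right) on all 3 Dnmt3b-KO arrays (left panel) or on replicates 1 and 2 (right panel); dotted lines mark the shares over all genes, 8.21% and 6.68% on the left panel and 17.4% and 15.1% on the right. The 4 synthesis and regulator groups at the top reach only to the left, the oxidation list reaches only to the right, and the further synthesis list and the LXR targets reach both ways.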

How the data were processed

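RNA was measured on Affymetrix mouse arrays, 3 Control and 3 Dnmt3b-KO. The deposited values are log2 values that the authors made by RMA (named without a version in the submitters' processing notes). Some exceed 16, the log2 limit of a 16-bit scanner, with a maximum of 19.59. A further step of scaling is not stated in the sources used here, and differences were not converted to folds. Of 72688 rows, 30604 carry exactly 1 gene symbol and 2146 several, which were not named. Each gene was represented by its row of highest mean level. The groups were compared by lmFit and eBayes (limma 3.58.1, R 4.3.3) at an adjusted p under 0.05, Benjamini-Hochberg over 30142 genes, and the fit was tested on simulated data.

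Members and lists were chosen with earlier results of these data known. Named results are members past the threshold in either fit, then those with the smallest p over 5 arrays to fill 10 places, then 4 more by p over 6 arrays. Members more than 1 outside the other arrays on Dnmt3b-KO replicate 3 are named too, as are genes of other lists past the threshold or else with the smallest p. Precision is limited by the number of arrays. Nothing in the labels ties an array to its own mouse, so the spread behind each p-value may be technical. Alternatives were repeated quantile normalization, centring, a filter on dim genes, the mean of a gene's rows, array weights, robust fitting with a variance trend, a replicate block, no empirical Bayes, a threshold of 0.1 and leaving out each array.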

Additional observations from a re-analysis of the deposited data

How the results depend on the processing

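The alternatives for the count of members below every control and for their median change were added after the data were seen. The count of 17 over 6 arrays was 16 after repeated quantile normalization, 17 with arrays centred and 17 to 22 with an array left out; that of 22 over 5 arrays was 23, 21 and 23 to 28. Leaving out an array can only keep or raise such a count. The median change stayed between -0.45 and -0.25 over 6 arrays and between -0.46 and -0.18 over 5.

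The 0 members called over 6 arrays became 1 without Dnmt3b-KO replicate 3 and stayed 0 without any other array. All genes called, 0, ranged up to 509 the same way, and array weights called 103. Array weights turned Fads1 to -0.51 and Fads2 to -0.51. Leaving out an array gave ranges of -0.63 to 0.94 for Fads1, -0.66 to 1.11 for Fads2, -0.051 to 1.51 for Abca1, -0.058 to 0.17 for Rnf139 and -0.044 to 0.37 for Dgat1.

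Over 5 arrays, 1 member and 509 genes became 7 and 1148 at an adjusted p under 0.1, and 6 and 1003 among genes above the median level, where fewer genes are tested. The 6 were Fads1, Fdps, Sqle, Fasn, Lss and Elovl6. The counts were 0 members with a variance trend and robust fitting, 0 and 0 without empirical Bayes, and 0 members and 13 to 262 genes with 1 more array left out, where a knockout array left alone is taken to vary as the controls do. The cause of these differences was not tested. The change of Dnmt3b stayed below 0 and short of the threshold under every alternative run.

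Blocking on the replicate number gave 0 members and 0 genes over 6 arrays, and 0 members and 96 genes over 5. Deviations of same-numbered samples correlated at 0.13, 0.03 and 0.11; each control array was most like the same-numbered Dnmt3b-KO array, but Dnmt3b-KO replicate 2 was most like control replicate 1, so the numbers were not taken as pairs.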
